A study of Mus musculus with 24 samples.

Results

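A set of 4 genes of hepatic ketone body formation and release were examined in fasted mouse liver. They are Bdh1 and Acat1, which encode mitochondrial enzymes of ketone body metabolism, and Slc16a1 and Slc16a6, which encode plasma membrane carriers of the monocarboxylate transporter family. They were chosen by gene symbol, and all 4 were found among the 35275 genes of the count table. RNA-seq libraries came from the livers of male mice labelled C57BL/6, 8 to 10 weeks old, fed chow and fasted for 24 h, with 4 libraries in each of 6 groups. The groups were control, Tsc1L-/-, Cpt2L-/-, the double knockout of both genes in liver (DKO), Ppara KO and Cpt2L-/- Ppara KO. Control mice are labelled wild type and are described in the study's methods as Tsc1 f/f; Cpt2 f/f littermates. The liver deletions were driven by Albumin-Cre, which acts in hepatocytes, and liver cells in which it does not act keep intact alleles. The origin and breeding of the Ppara KO animals are not given in the sources used here, and each library was treated as a separate animal.

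Ketone bodies are made in the mitochondria of hepatocytes from the acetyl-CoA that fatty acid oxidation yields, and during fasting they are released to feed other organs. Acat1 joins acetyl-CoA molecules to acetoacetyl-CoA, from which acetoacetate is formed, and Bdh1 reduces acetoacetate to beta-hydroxybutyrate. Slc16a1 (MCT1) is a proton-linked carrier of lactate, pyruvate and ketone bodies, and Slc16a6 (MCT7) is known as a carrier for ketone body export from hepatocytes. Cpt2 encodes the inner membrane carnitine palmitoyltransferase, without which long acyl chains do not enter beta-oxidation in the matrix. Tsc1 restrains mTorc1, and Ppara encodes a nuclear receptor for lipid ligands that is active in the fasted liver.

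In GRCm38 coordinates, Bdh1 (ENSMUSG00000046598) spans chr16:31422280-31458901 on the plus strand and Slc16a1 (ENSMUSG00000032902) spans chr3:104638668-104658462 on the plus strand. Acat1 (ENSMUSG00000032047) spans chr9:53580522-53610382 and Slc16a6 (ENSMUSG00000041920) spans chr11:109450855-109473598, both on the minus strand. Exons of Slc16a6 are overlapped over 1052 of 4883 bases (21.5%) by Amz2 and over 48 bases (0.983%) by Arsg, both on the opposite strand, and over 49 bases (1%) by the miRNA gene Gm25540 on the same strand. Those of Bdh1 are overlapped over 533 of 3888 bases (13.7%) by the antisense gene Gm15743. The strand setting of the counting is not given in the sources used here. Reads from the stretches with a partner on the opposite strand could have been counted on either gene or on neither. No exon of Slc16a1 is overlapped by another gene of the annotation.

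RefSeq promoter sequences (GRCm38.p6) matched 2 of the 4 genes. The stretches before a start site of Slc16a1 and of Bdh1 are shown because the transporter and the enzyme changed in opposite directions in Cpt2L-/- and DKO livers. Both are on the plus strand and written 5′ to 3′, and capitals mark the E-box CACGTG.
Slc16a1, chr3:104638414-104638663: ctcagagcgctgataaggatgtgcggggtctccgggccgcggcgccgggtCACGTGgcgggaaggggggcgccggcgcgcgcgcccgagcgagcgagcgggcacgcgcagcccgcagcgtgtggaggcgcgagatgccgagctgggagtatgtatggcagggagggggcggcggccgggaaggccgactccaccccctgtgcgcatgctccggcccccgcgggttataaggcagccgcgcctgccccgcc
Bdh1, chr16:31422047-31422279: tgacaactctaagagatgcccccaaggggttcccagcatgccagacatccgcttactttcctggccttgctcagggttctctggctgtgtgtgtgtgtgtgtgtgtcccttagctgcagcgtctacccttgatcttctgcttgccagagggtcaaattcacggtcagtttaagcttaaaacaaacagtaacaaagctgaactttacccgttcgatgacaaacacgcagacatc
The full Slc16a1 window of 250 bases was 76.4% G and C and held 37 CpG dinucleotides. The full Bdh1 window of 250 bases, of which the first 233 are printed, was 49.6% with 7 CpG. The window before a second Bdh1 start site, chr16:31428503-31428752, not printed here, was 60.8% G and C with 9 CpG. Medians over all promoter windows were 52.4% and 6. CACGTG was found at 1 place in the Slc16a1 window and in 6.02% of 32851 promoter windows of 250 bases. The nuclear receptor core site AGGTCA, its direct repeat with 1 base between the copies and the cyclic AMP response core TGACG, searched on both strands, were not found in either printed stretch, and 14%, 0.0335% and 17.8% of all windows held them. These are matches of letters only.

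Library totals ranged from 14470968 to 20371204 counts. Ppara transcript was lower in Ppara KO livers (27.4 ± 16.8 CPM, SD, n = 4) and in Cpt2L-/- Ppara KO livers (51.4 ± 28.3 CPM) than in control livers (256 ± 29.5 CPM). Tsc1 transcript was lower in Tsc1L-/- and DKO livers than in control livers. Cpt2 counts did not separate Cpt2L-/- (92.3 ± 10.1 CPM) from control (97.6 ± 6.84 CPM) and so do not check that label. Replicate 1 of the Cpt2L-/- Ppara KO group stood apart: it had 91.9 CPM of Ppara against 26.2 to 46.2 in the other 3 libraries, 24.3 CPM of Tsc1 against 42.4 to 50.6, and 125.5 CPM of Cpt2 against 31.7 to 39.1. Its Tsc1 level lay within the range of Tsc1L-/- livers (18.0 to 28.6 CPM) and below every control, Cpt2L-/- and Ppara KO library (36.8 CPM or more). Other values went with its label. Its Ppara level was below every control, Tsc1L-/-, Cpt2L-/- and DKO library (137 CPM or more). It had 67.1 CPM of Nnt, 0.362 of Cd1d2 and 0.0724 of the transporter gene Slc16a13. Tsc1L-/- and DKO libraries had at least 150, 11.2 and 0.484 CPM of these genes. The values thus went both ways and the label of this library is in doubt. It enters every Cpt2L-/- Ppara KO mean, comparison and interaction term unless it is said to be left out. Replicate 1 of the Ppara KO group had the highest Ppara of its group (45.2 CPM against 13.0 to 38.1 in the others) and 96.1 CPM of Cpt2 against 38.0 to 50.9. Values without these libraries are given beside the results that they moved. Nnt, a gene with a known deletion in the C57BL/6J substrain, was at 183 to 220 CPM in control, 118 to 150 in Cpt2L-/-, 17.8 to 49.0 in Ppara KO and 41.6 to 69.5 in Cpt2L-/- Ppara KO livers, and Cd1d2, at 18.9 to 60.7 CPM in control, was under 0.9 CPM in those 3 groups. Breeding background and genotype therefore cannot be told apart there. DKO livers had 202 to 216 CPM of Nnt and 11.2 to 29.1 CPM of Cd1d2, and Tsc1L-/- livers 150 to 213 and 12.8 to 38.2 CPM. Both genes thus also separated DKO from Cpt2L-/- livers. The same limit holds for that comparison and for both interaction terms. The summed level of 6 hepatocyte markers was 60700 to 80200 CPM in control livers. It was lower without overlap in DKO (27500 to 35200 CPM), Cpt2L-/- (35900 to 58100) and Cpt2L-/- Ppara KO livers (42500 to 59600), and overlapped control in Tsc1L-/- (39800 to 64900) and Ppara KO livers (56900 to 82100). All 6 markers were detected in every group. Kupffer cell markers (5 of 6 in the table) summed to 98.2 to 139 CPM in DKO and 166 to 287 CPM in control livers. Stellate cell markers summed to 154 to 193 CPM in DKO and 248 to 329 CPM in control livers, and 6 of 6 passed the test as lower in DKO. They also summed below every control library in Tsc1L-/- (160 to 239 CPM) and Cpt2L-/- Ppara KO livers (172 to 223). Leukocyte markers summed to 4.88 to 7.76 CPM in DKO and 9.75 to 17 CPM in control livers, and to 3.91 to 8.95 CPM in Ppara KO livers. The part of these shifts in the results was not tested. Over the 6 groups, endothelial markers summed to 133 to 328 CPM (256 to 285 in control, 158 to 266 in DKO and, below every control library, 133 to 229 in Cpt2L-/- Ppara KO), cycling cell markers to 1.83 to 5.36 (2.6 to 3.03 in control and, below it, 1.96 to 2.54 in Cpt2L-/-) and foreign tissue markers to at most 3.36. In whole liver, fewer cells of a type and less RNA per cell cannot be told apart.

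Per length of transcript, the enzymes were far more abundant than the transporters in control livers. FPKM, reads scaled to gene length and library total, was 150 ± 36.4 for Bdh1, 160 ± 35.3 for Acat1, 11.6 ± 1.44 for Slc16a1 and 0.739 ± 0.251 for Slc16a6 (SD, n = 4). Slc16a6 rested on 32 to 72 counts per control library, and the other 3 genes on at least 748. The Bdh1 to Acat1 ratio of FPKM within a library was 0.865 to 1.06 in control and 0.150 to 0.628 in Ppara KO livers. The Slc16a1 to Slc16a6 ratio was 13.1 to 26.0 in control and 1.51 to 3.503 in Ppara KO livers, so the carriers were closer in level without Ppara. The Acat1 to Slc16a1 ratio was 10.7 to 16.2 in control and 2.78 to 4.20 in DKO livers.

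Bdh1, the beta-hydroxybutyrate dehydrogenase, was highest in control livers, at 394.5, 420, 528 and 587 CPM (counts scaled to library size with TMM factors) in the 4 libraries. Tsc1L-/- livers had 304, 177, 247 and 353 CPM. Cpt2L-/- livers had 197, 360.2, 355 and 280 CPM. Every library of both groups lay below the lowest control library. DKO livers had 358, 296.5, 263 and 253.5 CPM, within the range of the single knockouts. Ppara KO livers had 128, 25.6, 21.02 and 42.2 CPM, and the high value was replicate 1. Cpt2L-/- Ppara KO livers had 173, 98.0, 175 and 161 CPM, above 3 of the 4 Ppara KO libraries. In order of mean level, control (482 ± 90.7 CPM) was followed by Cpt2L-/- (298 ± 76.7), DKO (293 ± 47.4), Tsc1L-/- (270.2 ± 75.8), Cpt2L-/- Ppara KO (152 ± 36.4) and Ppara KO (54.2 ± 50.0). The middle 3 groups overlapped each other, and the last 2 overlapped only through Ppara KO replicate 1, without which that group was at 29.6 ± 11.2 CPM (n = 3).

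Acat1, the acetoacetyl-CoA thiolase, was at 497, 485, 658 and 603.5 CPM in control livers. Tsc1L-/- livers had 207, 264.1, 312 and 428.5 CPM, all below control. Cpt2L-/- livers had 409.8, 538, 461.1 and 350.5 CPM, and replicate 2 reached into the control range. DKO livers had 414, 457.5, 379.7 and 456 CPM, a narrow spread just under control. Ppara KO livers had 222, 123, 152.5 and 81.0 CPM. Cpt2L-/- Ppara KO livers had 670.5, 185, 183.5 and 246 CPM, and the first of these, from the replicate that stood apart, was the highest Acat1 level of all 24 libraries. Without it the group mean was 205 ± 35.7 CPM (n = 3) in place of 321 ± 235. Neighbouring groups in the order of means overlapped throughout, from control (561 ± 84.0 CPM) down to Ppara KO (145 ± 59.5 CPM).

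Slc16a1, the carrier MCT1, was at 44.5, 59.0, 52.8 and 57.4 CPM in control livers and at 67.2, 48.4, 46.3 and 62.6 CPM in Tsc1L-/- livers, where replicates 1 and 4 lay above the highest control library and the other 2 within the control range. Cpt2L-/- livers had 89.0, 87.2, 88.0 and 120.2 CPM. DKO livers had 128, 167, 169 and 213.5 CPM, each above every library of every other group. Ppara KO livers had 48.5, 86.0, 80.2 and 59.5 CPM and overlapped control. Cpt2L-/- Ppara KO livers had 74.2, 38.1, 38.5 and 34.0 CPM, and 3 of the 4 lay below the lowest control library. DKO (169 ± 34.9 CPM) and Cpt2L-/- (96.1 ± 16.1) were set off from each other and from the remaining groups, which overlapped their neighbours, from Ppara KO (68.6 ± 17.5) through Tsc1L-/- (56.1 ± 10.4) and control (53.4 ± 6.51) to Cpt2L-/- Ppara KO (46.2 ± 18.8, and 36.9 ± 2.48 without replicate 1, n = 3).

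Slc16a6, the carrier MCT7, was lowest in control livers, at 2.73, 2.16, 3.70 and 4.16 CPM. Tsc1L-/- livers had 5.87, 2.98, 4.86 and 6.85 CPM and overlapped control. Cpt2L-/- livers had 9.45, 11.5, 7.38 and 16.7 CPM, and DKO livers 11.98, 7.72, 8.93 and 5.24 CPM, all above control. Ppara KO livers had 13.2, 54.4, 39.7 and 17.9 CPM, the highest group with the widest spread. Cpt2L-/- Ppara KO livers had 9.41, 10.8, 7.77 and 11.9 CPM, below every Ppara KO library. Group means ran from 31.3 ± 19.2 CPM in Ppara KO through 11.3 ± 4.0 in Cpt2L-/-, 9.99 ± 1.81 in Cpt2L-/- Ppara KO, 8.47 ± 2.80 in DKO and 5.14 ± 1.65 in Tsc1L-/- to 3.19 ± 0.908 in control, and each group overlapped the next in this order.

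**Figure D1:**
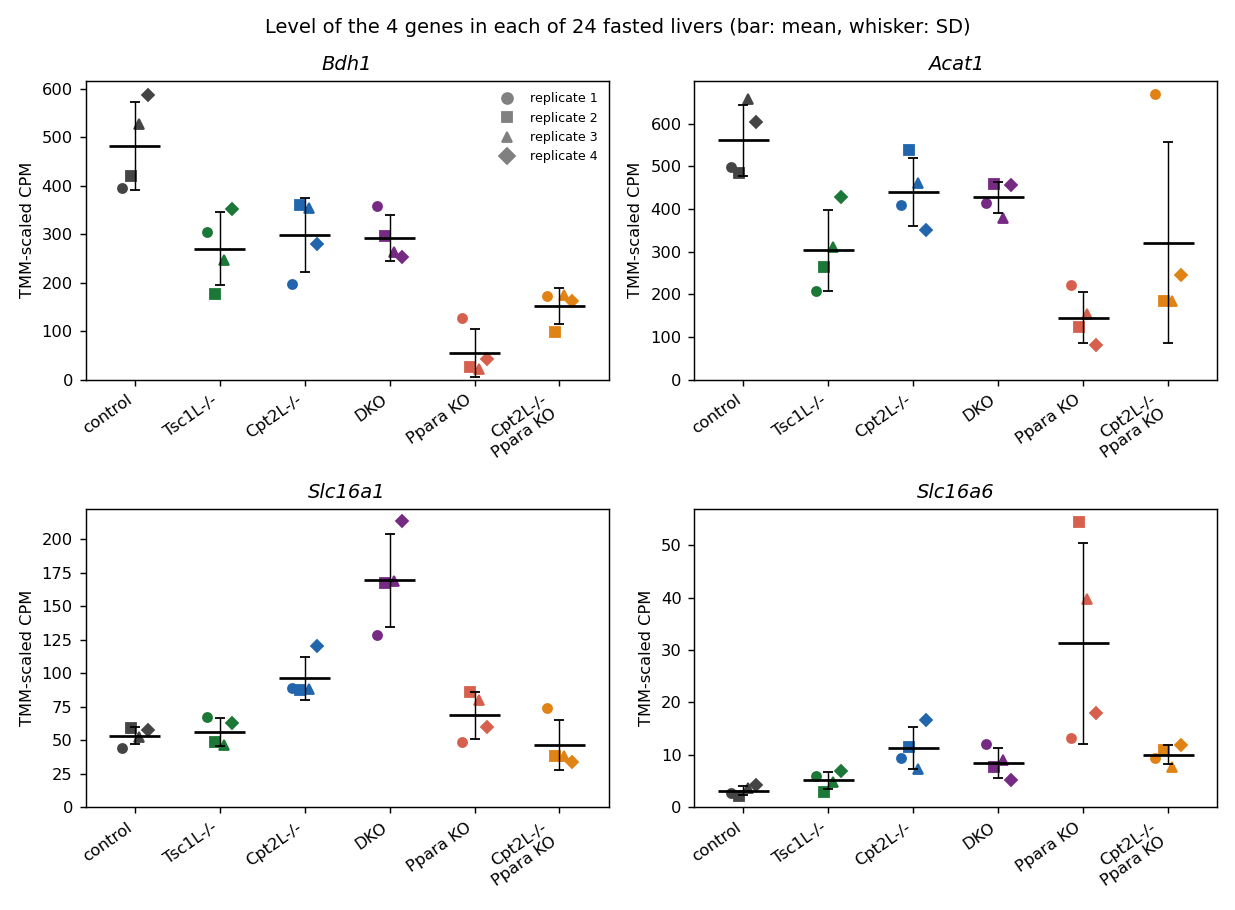
TMM-scaled CPM (vertical axes, linear) of Bdh1, Acat1, Slc16a1 and Slc16a6 in each liver of the 6 groups, with replicate numbers as symbols, the mean as a bar and the SD as a whisker (n = 4). The enzymes were highest in control and lowest in Ppara KO livers, Slc16a1 was highest in DKO, and Slc16a6 was lowest in control and highest in Ppara KO livers. Acat1 in Cpt2L-/- Ppara KO replicate 1 (670.5 CPM) lies far above the other 3 libraries of its group.

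The comparison of Tsc1L-/- with control livers asks what mTorc1 activation does to these genes in the fasted liver. Both enzymes fell and neither transporter passed the test. Bdh1 fell by 0.84 on the log2 scale (SE 0.213, adjusted p = 0.0239, edgeR quasi-likelihood test) and Acat1 by 0.89 (SE 0.189, adjusted p = 0.00805). Slc16a1 differed by 0.07 (95% interval -0.27 to 0.40, adjusted p = 0.861) and Slc16a6 by 0.68 (0.03 to 1.33, adjusted p = 0.211). The 2 genes called of 4 stand against 6.64% of 13641 genes tested, and the same 2 had no overlap between groups, against 12.2% of genes. The Bdh1 call was lost in 8 of 16 alternatives, without control replicate 3 or 4 or Tsc1L-/- replicate 2 or 3 among them (adjusted p 0.0513 to 0.075), and with all 24 libraries in the fit neither enzyme passed (adjusted p = 0.308 for Bdh1 and 0.182 for Acat1).

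Loss of Cpt2 removes the oxidation that supplies ketogenesis. In Cpt2L-/- livers Bdh1 fell and both transporters rose, while Acat1 did not pass the test. Slc16a6 was 3.44-fold higher than in control (log2 fold change 1.78, SE 0.306, adjusted p = 0.000277) and Slc16a1 1.77-fold higher (0.82, SE 0.160, adjusted p = 0.000799). Bdh1 fell by 0.72 on the log2 scale (SE 0.213, adjusted p = 0.015), and Acat1 differed by -0.38 (95% interval -0.77 to 0.02, adjusted p = 0.139). The 3 genes called of 4 stand against 31% of all genes tested, and the same 3 had no overlap between groups, against 30.9% of genes. Both transporter calls held under all 16 alternatives, and the Bdh1 call was lost without control replicate 4 (adjusted p = 0.0606), without Cpt2L-/- replicate 1 (0.0523) and with all 24 libraries (0.191).

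In DKO livers the same genes passed as in Cpt2L-/- livers, and Slc16a1 was further raised. Slc16a1 was 3.15-fold higher than in control (log2 fold change 1.66, SE 0.162, adjusted p = 9.31e-07) and Slc16a6 2.62-fold higher (1.39, SE 0.306, adjusted p = 0.00185). Bdh1 fell by 0.73 (adjusted p = 0.0126), and Acat1 differed by -0.40 (95% interval -0.80 to -0.01, adjusted p = 0.102). The 3 genes called of 4 stand against 36.4% of genes tested, and all 4 genes had no overlap between groups, against 37.4% of genes. The comparison shares its control libraries with the other comparisons against control. The Bdh1 call was lost with all 24 libraries (adjusted p = 0.154) and with limma on FPKM (0.0665), and Acat1 passed in the fit of only these groups (0.0212).

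The comparison of DKO with Cpt2L-/- asks what Tsc1 loss adds when Cpt2 is already absent. Nnt and Cd1d2 also differed between these groups without overlap (Cd1d2 at 11.2 to 29.1 CPM in DKO and 0.107 to 0.768 in Cpt2L-/-). Breeding background and Tsc1 loss therefore cannot be told apart here. Slc16a1 was 1.79-fold higher in DKO (log2 fold change 0.84, SE 0.159, adjusted p = 0.00188) and passed under all 16 alternatives, and it was the only gene of the 4 called (18.3% of genes tested) and the only gene of the 4 without overlap between groups (23% of genes). Bdh1 differed by -0.01 (95% interval -0.45 to 0.44), Acat1 by -0.03 (-0.42 to 0.37) and Slc16a6 by -0.39 (-1.0 to 0.22). Against Tsc1L-/- livers, DKO livers had 3.01-fold more Slc16a1 (log2 fold change 1.59, adjusted p = 2.05e-06), again the only call (32.2% of genes tested) and the only gene of the 4 without overlap (30.5% of genes). Acat1 differed there by 0.49 (95% interval 0.09 to 0.88, adjusted p = 0.0554), Slc16a6 by 0.71 (0.08 to 1.33, adjusted p = 0.0777) and Bdh1 by 0.11 (-0.34 to 0.55). Without Tsc1L-/- replicate 4 the Acat1 difference passed (0.70, adjusted p = 0.00613), and without DKO replicate 4 that of Slc16a6 did (0.88, adjusted p = 0.0351).

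The interaction term tests whether the effect of Cpt2 loss differs with and without Tsc1. Nnt and Cd1d2 both passed as positive in this term (median 3.56), so breeding background and genotype cannot be told apart in it. None of the 4 genes passed in the edgeR fit, against 2.38% of genes tested, although all 4 had an unadjusted p under 0.05. The term was 0.83 for Bdh1 (adjusted p = 0.144), 0.86 for Acat1 (0.0899), 0.77 for Slc16a1 (0.0756) and -1.08 for Slc16a6 (0.176). With DESeq2, Acat1 (adjusted p = 0.0408) and Slc16a1 (0.0442) passed. Acat1 passed without Tsc1L-/- replicate 4 (0.0246) and Slc16a1 without DKO replicate 1 (0.0463).

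**Figure D2:**
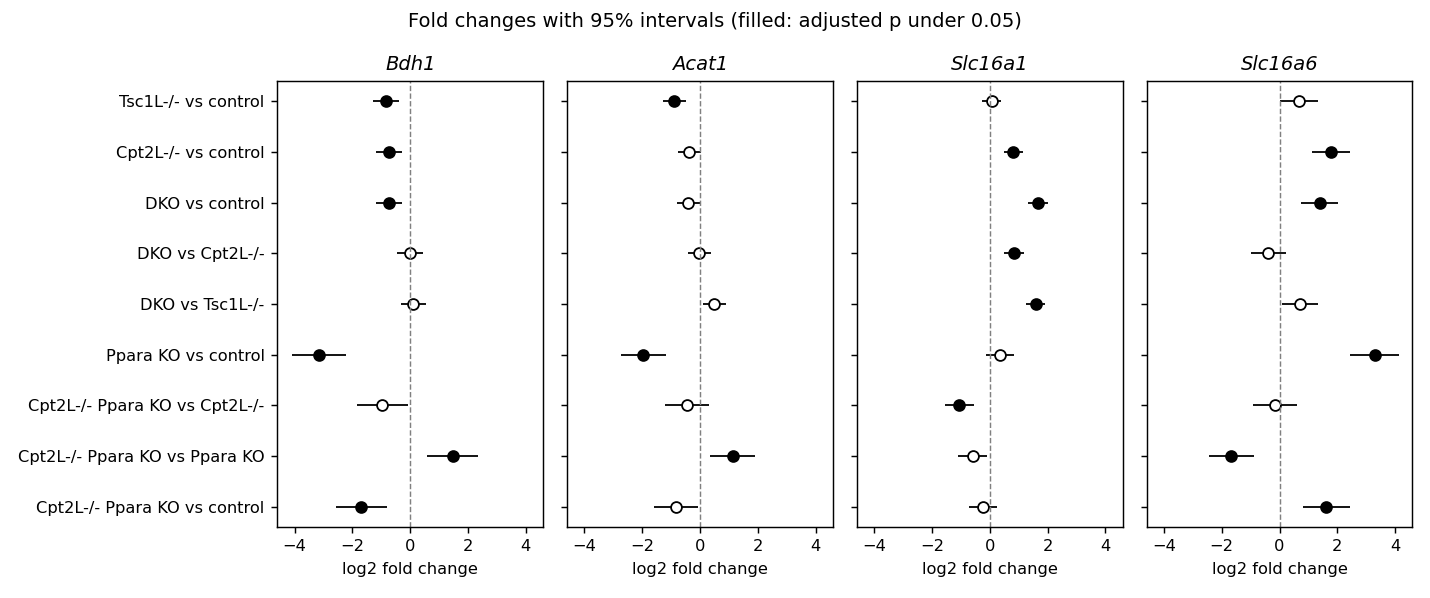
Log2 fold changes (horizontal axes) of the 4 genes in the 9 comparisons between groups, with 95% intervals, filled where the adjusted p was under 0.05. Slc16a1 was raised in the Cpt2L-/- and DKO comparisons with control (0.82 and 1.66), and Bdh1 and Slc16a6 moved in opposite directions in Ppara KO livers (-3.16 and 3.29).

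In Ppara KO livers both enzymes fell steeply, Slc16a6 rose, and Slc16a1 did not pass the test. Bdh1 was 8.94-fold lower than in control (log2 fold change -3.16, SE 0.450, adjusted p = 9.6e-05) and Acat1 3.89-fold lower (-1.96, SE 0.376, adjusted p = 0.00105). Slc16a6 was 9.77-fold higher (3.29, SE 0.401, adjusted p = 2.41e-05), and Slc16a1 differed by 0.36 (95% interval -0.14 to 0.85, adjusted p = 0.269). The 3 genes called of 4 stand against 29% of 13615 genes tested, and the same 3 had no overlap between groups, against 29.7% of genes. All 3 calls held under all 17 alternatives, and the Slc16a6 value was 2.06 with limma on log2(FPKM + 1), a scale that understates changes of low genes. Without both libraries with the highest Ppara, an alternative chosen after seeing the data, Bdh1 was at -4.02 and Slc16a1 passed (0.50, adjusted p = 0.0234).

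Values that moved with Slc16a6 in Ppara KO livers are given here. The summed level of 4 cholangiocyte markers was 12.6, 27.1, 28.9 and 14.4 CPM in the 4 Ppara KO libraries and 4.74 to 9.86 CPM in control, and replicates 2 and 3 were the highest in both this sum and Slc16a6. Of the 4 markers, Sox9 alone passed the test (log2 fold change 2.31, adjusted p = 0.00118), and Krt7 was at 1.29 (adjusted p = 0.184), Krt19 at -0.46 and Epcam at -0.20. Their part in the Slc16a6 result was not tested. Amz2, the partner on the opposite strand, was at 12.6 ± 1.89 CPM in Ppara KO and 15.6 ± 1.96 CPM in control livers (log2 fold change -0.31, adjusted p = 0.273), and did not rise where Slc16a6 was 9.77-fold higher. In DKO livers Amz2 did rise (21.7 ± 3.08 CPM, 0.47, adjusted p = 0.011), and in Cpt2L-/- livers it differed by 0.07 (adjusted p = 0.719). Its mean was highest in Cpt2L-/- Ppara KO livers (23.1 ± 7.92 CPM, 0.53, adjusted p = 0.0655), where Slc16a6 was 3.07-fold higher than in control. Arsg, which shares 48 exonic bases with Slc16a6, rose in Cpt2L-/- (1.22, adjusted p = 0.0151), DKO (1.27, adjusted p = 0.0104) and Cpt2L-/- Ppara KO livers (1.21, adjusted p = 0.00788), and differed by 0.54 in Ppara KO livers (adjusted p = 0.178). The part of these neighbours in the Slc16a6 counts was not tested. Gm15743, on the strand opposite Bdh1, was under 2.5 CPM in every library.

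When Cpt2 was also absent, loss of Ppara gave another pattern. Between Cpt2L-/- Ppara KO and Cpt2L-/- livers Slc16a1 was 2.08-fold lower (log2 fold change -1.05, SE 0.237, adjusted p = 0.00744), the only gene of the 4 called, against 18.4% of genes tested. Bdh1 differed by -0.97 (95% interval -1.85 to -0.09, adjusted p = 0.113), Acat1 by -0.45 (-1.22 to 0.31, adjusted p = 0.401) and Slc16a6 by -0.17 (-0.93 to 0.60, adjusted p = 0.785). Bdh1 and Slc16a1 had no overlap between groups, against 22.4% of genes. The Acat1 value rested on replicate 1 of the Cpt2L-/- Ppara KO group, without which it was -1.10 (adjusted p = 0.0115). Without both libraries with the highest Ppara, Bdh1 passed too (-1.04, adjusted p = 0.0183).

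Between Cpt2L-/- Ppara KO and Ppara KO livers, which asks what Cpt2 loss does without Ppara, both enzymes were higher and Slc16a6 was lower. Bdh1 was 2.77-fold higher (log2 fold change 1.47, SE 0.424, adjusted p = 0.0206), Acat1 2.19-fold higher (1.13, SE 0.368, adjusted p = 0.0335) and Slc16a6 3.19-fold lower (-1.67, SE 0.370, adjusted p = 0.0073), while Slc16a1 differed by -0.60 (adjusted p = 0.0707). The 3 genes called of 4 stand against 25.5% of genes tested, and Slc16a6 was the only gene of the 4 without overlap between groups, against 18.3% of genes. Without replicate 1 of the Cpt2L-/- Ppara KO group, Bdh1 was 1.40 (adjusted p = 0.064), Acat1 0.48 (0.22) and Slc16a1 passed at -0.92 (0.0113). The enzyme calls were also lost without Ppara KO replicate 2, 3 or 4 (adjusted p 0.0539 to 0.0947), and Slc16a1 passed with all 24 libraries in the fit (0.0442) and without Ppara KO replicate 1 (0.0291), where Bdh1 was 2.32 (0.000353). Without both libraries with the highest Ppara all 4 genes passed, with Bdh1 at 2.27 (adjusted p = 0.000449), Acat1 at 0.76 (0.0303), Slc16a1 at -1.05 (0.00149) and Slc16a6 at -1.90 (0.00346). In a fit of only these groups no gene of the 4 passed (0.0582 for Slc16a6). The sum of cholangiocyte markers was 3.26 to 5.38 CPM in Cpt2L-/- Ppara KO and 12.6 to 28.9 CPM in Ppara KO livers. Most of the Ppara KO sum was Sox9 (mean 16.05 CPM, other markers 1.14 to 1.82). Of the 4, Sox9 alone passed as lower (-3.07, adjusted p = 0.00158, median of the 4 -1.49). Other sums also differed without overlap between Cpt2L-/- Ppara KO and Ppara KO livers. Kupffer cell markers were at 241 to 338 and 175 to 233 CPM, and leukocyte markers at 10.4 to 13.5 and 3.91 to 8.95. Endothelial markers were at 133 to 229 and 247 to 285 CPM, and stellate cell markers at 172 to 223 and 249 to 259. The part of these markers in the result was not tested.

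Against control, Cpt2L-/- Ppara KO livers had 3.23-fold less Bdh1 (log2 fold change -1.69, adjusted p = 0.00919) and 3.07-fold more Slc16a6 (1.62, adjusted p = 0.00704). These 2 genes called of 4 stand against 23.6% of genes tested, the same 2 had no overlap with control, against 28.1% of genes, and both calls held under all 17 alternatives. Acat1 differed by -0.83 (95% interval -1.60 to -0.06, adjusted p = 0.105) and, without replicate 1 of the Cpt2L-/- Ppara KO group, by -1.48 (adjusted p = 0.00145). Slc16a1 differed by -0.24 (-0.73 to 0.26, adjusted p = 0.48), and by -0.56 (adjusted p = 0.0268) without both libraries with the highest Ppara.

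The effect of Cpt2 loss differed with and without Ppara for each of the 4 genes. The interaction term, the log2 effect of Cpt2 loss in Ppara KO livers minus that in livers with Ppara, was 2.19 for Bdh1 (SE 0.593, adjusted p = 0.0143), 1.51 for Acat1 (SE 0.516, adjusted p = 0.0422), -1.41 for Slc16a1 (SE 0.334, adjusted p = 0.00699) and -3.45 for Slc16a6 (SE 0.535, adjusted p = 0.000608). The 4 genes called of 4 stand against 24% of genes tested. With Ppara, Bdh1 fell and the transporters rose upon Cpt2 loss; without it, Bdh1 was higher and Slc16a6 lower. The terms of Bdh1, Slc16a1 and Slc16a6 passed under all 24 alternatives, whereas that of Acat1 failed in 14 of 24 and was 0.86 (adjusted p = 0.0899) without replicate 1 of the Cpt2L-/- Ppara KO group. The Bdh1 term was 3.06 (adjusted p = 0.00012) without Ppara KO replicate 1. Without both libraries with the highest Ppara the terms were 2.99 for Bdh1, 1.14 for Acat1, -1.87 for Slc16a1 and -3.68 for Slc16a6. That of Slc16a6 was -2.16 with limma on log2(FPKM + 1). The median term of the 4 cholangiocyte markers was -1.40, and Sox9 alone of them passed (-2.40, adjusted p = 0.0138).

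**Figure D3:**
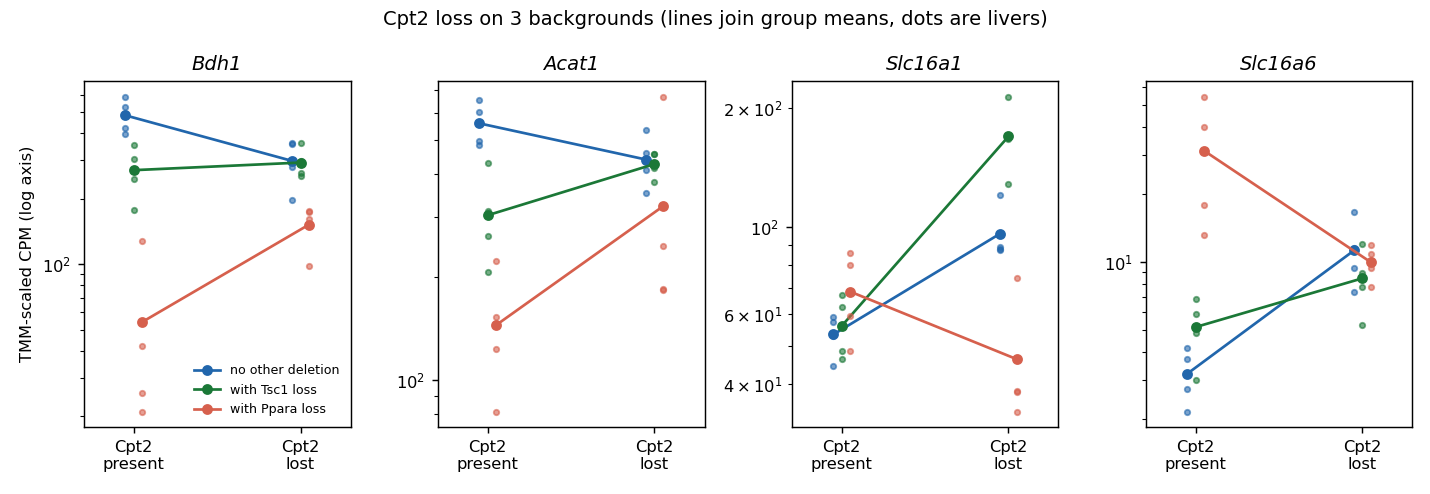
TMM-scaled CPM (log axes) with Cpt2 present and lost, on 3 backgrounds: no other deletion (control to Cpt2L-/-), with Tsc1 loss (Tsc1L-/- to DKO) and with Ppara loss (Ppara KO to Cpt2L-/- Ppara KO). Lines join group means and dots are single livers. The line with Ppara loss runs against the line without other deletion for all 4 genes, for example from 31.3 to 9.99 CPM for Slc16a6, which went from 3.19 to 11.3 CPM with Ppara.

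Other genes of ketone body and related thiolase and synthase chemistry gave the setting for the enzymes. Of 9 listed, 6 passed the filter on low counts. In Ppara KO livers 4 of the 6 fell and none rose, against 29% of all genes called, and the median log2 fold change was -1.35 against 0.01 over all genes tested. These were Hmgcs1 (-1.75, adjusted p = 0.0101), Acat2 (-1.72, adjusted p = 0.000145), Aacs (-1.37, adjusted p = 0.0224) and Acat3 (-1.33, adjusted p = 0.00043). Hmgcs1 was widely spread in control livers (52.6 to 429 CPM), and its Ppara KO range (36.45 to 91.0 CPM) overlapped control. Acat2 and Acat3 encode cytosolic thiolases with near-identical sequences whose reads may be shared, Hmgcs1 is the cytosolic synthase of sterol synthesis, and Aacs activates acetoacetate in the cytosol, so these 4 are not enzymes of mitochondrial ketogenesis.

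The same list was also counted with Tsc1 or Cpt2 loss. In Tsc1L-/- livers 0 of 6 passed edgeR's test (median 0.14, against 0.01 over all genes), with 2 at an unadjusted p under 0.05 and 1 called by DESeq2 (6.64% of all genes were called). Bdh2, a cytosolic relative of Bdh1, was at 3.15 ± 1.16 CPM in control and 9.39 ± 4.81 in Tsc1L-/- livers (log2 fold change 1.56, adjusted p = 0.0523), without overlap between the groups. In Cpt2L-/- livers 3 of 6 fell and none rose, against 31% of all genes called (median -1.18, against -0.02 over all genes), namely Acat3 (-2.38), Hmgcs1 (-1.43) and Acat2 (-1.24). The Cpt2L-/- range of Hmgcs1 (68.7 to 80.1 CPM) lay within its control range (52.6 to 429 CPM). The same control libraries enter its interaction term. In DKO livers 2 of 6 fell and none rose, near the 36.4% of all genes called (median -0.65, against 0.02 over all genes), namely Acat3 (-1.65) and Acat2 (-0.69). The interaction of Cpt2 and Ppara loss was called for 3 of the 6, all positive, against 24% of all genes, with Acat3 at 2.64 (adjusted p = 8.58e-05), Hmgcs1 at 2.33 (adjusted p = 0.017) and Acat2 at 1.73 (adjusted p = 0.00341).

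Among 15 other transporter genes, 10 passed the filter. In Cpt2L-/- livers 2 rose and 2 fell, against 31% of all genes called, and in DKO livers 1 rose and 2 fell, against 36.4%, so both counts were near the share over all genes. In Tsc1L-/- livers 0 of 10 passed edgeR's test, against 6.64% of all genes called, with 2 at an unadjusted p under 0.05 and 0 called by DESeq2. Slc16a13 (MCT13) rose in Cpt2L-/- livers (2.58 ± 0.554 CPM in control, 6.97 ± 1.77 in Cpt2L-/-, log2 fold change 1.40, adjusted p = 0.00559) and in DKO livers (1.33, adjusted p = 0.00689), as Slc16a1 and Slc16a6 did. In Ppara KO livers it fell (0.471 ± 0.182 CPM, -2.41, adjusted p = 0.000313), where Slc16a6 rose. Slc16a5 rose in Cpt2L-/- livers (1.11, adjusted p = 0.031), and Slc16a12, a creatine carrier, fell in Cpt2L-/- (-1.14, adjusted p = 6.06e-05) and DKO livers (-0.94, adjusted p = 0.000267). In Ppara KO livers 4 of the 10 fell and none rose, near the 29% of all genes called (median -0.36, against 0.01 over all genes). Bsg, the chaperone that brings Slc16a1 to the plasma membrane, fell in Cpt2L-/- (-0.57, adjusted p = 0.005) and Ppara KO livers (-0.89, adjusted p = 0.00194) and was at -0.34 in DKO livers (adjusted p = 0.0624), so it did not rise where Slc16a1 was highest.

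**Figure D4:**
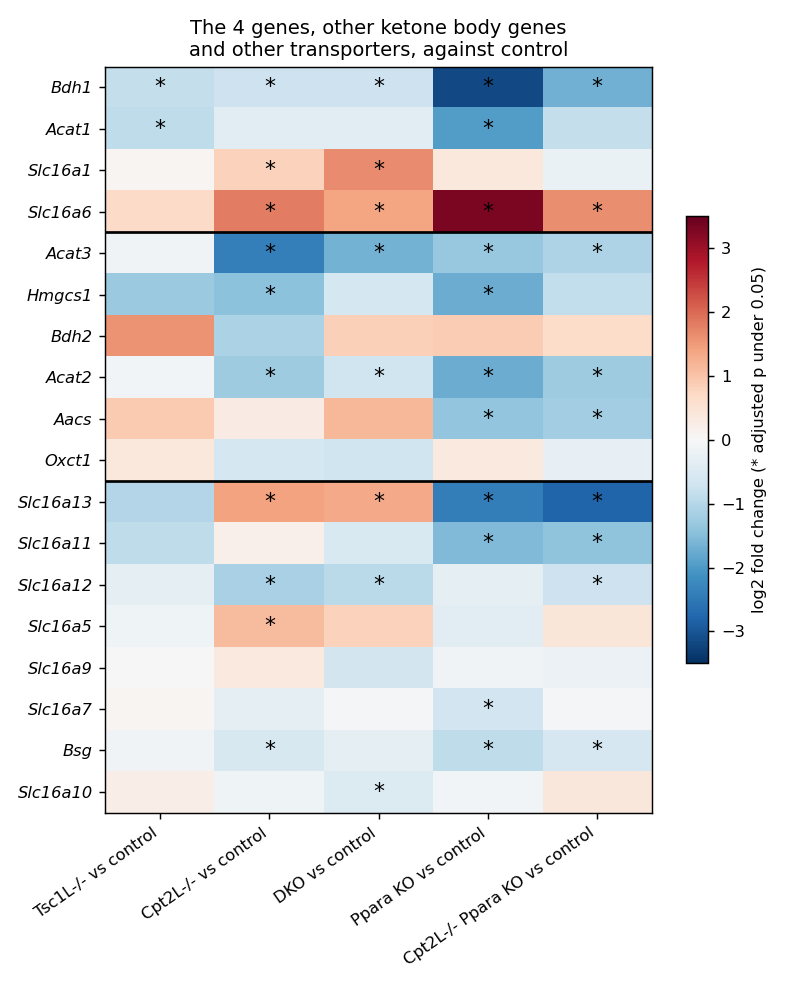
Log2 fold changes against control (colour, from -3.5 to 3.5) of the 4 genes, of 6 other ketone body genes and of 8 other transporter genes in the 5 knockout groups, with an asterisk where the adjusted p was under 0.05. The Ppara KO column is negative for 4 called ketone body genes, while Slc16a6 is at 3.29.

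Of 7 regulators of fasting ketogenesis, the deleted Ppara included, 5 fell and none rose in Ppara KO livers, against 29% of all genes called (median -0.82, against 0.01 over all genes). Ppargc1a, a coactivator of the receptor, was among them (-1.34, adjusted p = 0.00948), as was the deleted gene itself (Ppara, -3.23). In Cpt2L-/- livers 2 of the 7 rose and 2 fell, against 31% of all genes called, and in DKO livers 1 rose and 1 fell, against 36.4%. The deacetylase gene Sirt3 fell in Cpt2L-/- (-0.43, adjusted p = 0.0192) and DKO livers (-0.56, adjusted p = 0.00312), and the bile acid receptor Nr1h4 fell in Cpt2L-/- livers (-0.39, adjusted p = 0.0434). Creb3l3, a hepatocyte factor that acts with the receptor, fell in Tsc1L-/- livers (-0.41, adjusted p = 0.0335) and rose in Cpt2L-/- livers (0.40, adjusted p = 0.0115). Fgf21, a fasting hormone, was at 8.82 ± 3.38 CPM in control, 51.8 ± 14.2 in Cpt2L-/- and 92.7 ± 40.6 in DKO livers, and rose in both (2.53, adjusted p = 0.0139; 3.39, adjusted p = 0.00257). In Cpt2L-/- Ppara KO livers Fgf21 was at 92.8 CPM in replicate 1 and at 0.974 to 6.71 CPM in the other 3 libraries.

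The genes most like each member over the 24 libraries were found by the Pearson correlation of log2 CPM among 13987 genes, as a description, since the libraries share genotypes and scaling. Bdh1 was most like Bbox1 (r = 0.942), Paqr7 (0.933) and Vnn1 (0.929). Acat1 was most like Dhrs4 (0.946), Ech1 (0.940) and Fitm1 (0.927). All 6 were lowest in Ppara KO livers, for example Vnn1 at 0.773 ± 0.730 CPM there and 172 ± 45.5 CPM in control. Slc16a1 was most like Ucp2 (0.875), Adprhl2 (0.870) and Abr (0.870), and all 3 were highest in DKO livers (Ucp2 240.4 ± 17.8 CPM, control 55.7 ± 14.5 CPM). Slc16a6 was most like 9830144P21Rik (0.903), Cxadr (0.892) and Sdad1 (0.889), each highest in Ppara KO livers. By Spearman correlation, 1 of the 3 genes was again among the top 3 for Bdh1, 2 for Acat1, none for Slc16a1 and 1 for Slc16a6.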

How the data were processed

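Liver RNA was sequenced by the authors as single 75-base reads from stranded mRNA libraries. The authors deposited read counts per gene, whole numbers without normalization, for 35275 genes and 24 libraries, and FPKM values, which equal the count divided by gene length and library total (recomputed values differed by at most 5e-06). The submitters' processing notes name STAR 2.5, HTSeq 0.6.1, Bowtie 0.12.2, TopHat, DESeq2, edgeR, STAR-Fusion and the builds mm8 and mm9 without roles, whereas the gene coordinates in the deposited table are those of GRCm38. The strand setting of the counting is not given in the sources used here.

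The labels gave each library its group and replicate number. The count test was run with edgeR 4.0.16 (R 4.3.3): filterByExpr (minimum count 10, minimum total 15), TMM, robust quasi-likelihood fit, glmQLFTest and Benjamini-Hochberg adjustment over all genes tested, with a threshold of 0.05. Control, Tsc1L-/-, Cpt2L-/- and DKO formed 1 fit of 16 libraries (13641 genes), and control, Cpt2L-/-, Ppara KO and Cpt2L-/- Ppara KO another (13615 genes). CPM used TMM factors over 24 libraries. Log2 CPM for correlations used a prior count of 2. FPKM was used to compare genes with each other. Alternatives were RLE size factors, no filter, DESeq2 1.42.0, other sample sets, a replicate block, limma 3.58.1 on log2 FPKM with pseudocounts of 1 and 0.1, and each replicate left out. The scripts were tested on simulated data. Counting error of 36 pairs of libraries was checked, and no pair within a group was a duplicate. Each library has its own identifier in the labels and was treated as 1 animal. The labels do not state that these identifiers are animals, and p-values measure the spread between these samples.

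The 4 genes, the gene lists and the tests were chosen with earlier results of these data known. The genes named are the 4 members, the deleted genes, the regulators, listed ketone body and transporter genes that averaged 1 CPM or more and had a call in at least 1 comparison (at most 8 a list), and the 3 genes most like each member. Some genes of these lists are not reported here, and list counts leave them out. Hepatocyte, Kupffer cell, endothelial, stellate cell, cholangiocyte, leukocyte, cycling cell and foreign tissue markers were summed. Nnt, Cd1d2, Amz2, Arsg, Gm25540 and Gm15743 were added outside it with their values known. Promoter sequences are from RefSeq (GRCm38.p6), and the annotation is GENCODE vM21. Figures were drawn with matplotlib 3.10.9.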

Additional observations from a re-analysis of the deposited data

Results flagged for a closer look

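Of 24 groups of 4 libraries tested, 3 had a library far from the others, where chance flags about 5% of groups. Acat1 in Cpt2L-/- Ppara KO replicate 1 was 670.5 CPM, with a gap to the nearest library of 0.872 of the group's range. Slc16a1 in the same library was 74.2 CPM (0.889 of the range). Slc16a1 in Cpt2L-/- replicate 4 was 120.2 CPM (0.945 of the range), and the other 3 libraries of that group lay within 87.2 to 89.0 CPM. In Cpt2L-/- Ppara KO replicate 1 the mean correlation with its own group was 0.9425, with DKO 0.9311 and with Cpt2L-/- 0.9254. In Ppara KO replicate 1 it was 0.9549 with its own group and 0.9563 with Cpt2L-/- Ppara KO.

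The effect of Cpt2 loss differed between livers with and without Ppara by the interaction term of the edgeR fit for Bdh1 (2.19), Acat1 (1.51), Slc16a1 (-1.41) and Slc16a6 (-3.45). The Acat1 term kept its call in only 10 of 24 alternatives. In the edgeR fit without Cpt2L-/- Ppara KO replicate 1 it was 0.86 (adjusted p = 0.0899).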

How the results depend on the processing

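Of the values for single genes under the alternatives, 702 kept direction and side of the threshold, 40 lost the call, 23 gained it and 15 changed sign. The number of the 4 genes called moved by over 1.5 times as follows. In Tsc1L-/- against control it was 2, and 0 with all 24 libraries, 1 with only these groups or limma at either pseudocount, and 1 to 2 with a replicate left out. For DKO against Tsc1L-/- it was 1, and 2 with DESeq2 or limma and 1 to 2 with a replicate left out. The interaction of Tsc1 and Cpt2 loss had 0, and 2 with DESeq2 and 0 to 1 with a replicate left out. For Cpt2L-/- Ppara KO against Cpt2L-/- it was 1, 2 with only these groups, 3 without both libraries with the highest Ppara (chosen after seeing the data) and 1 to 2 with a replicate left out. Against Ppara KO it was 3, 0 with only these groups and 1 to 4 with a replicate left out, and against control 2, and 4 without both libraries. Smaller moves were from 3 to 2 in Cpt2L-/- against control (Bdh1), from 3 to 2 or 4 in DKO against control (Bdh1 lost or Acat1 gained), from 3 to 4 in Ppara KO against control (Slc16a1), from 3 to 4 in Cpt2L-/- Ppara KO against Ppara KO with all 24 libraries (Slc16a1), from 4 to 3 in the interaction of Cpt2 and Ppara loss (Acat1, 14 of 24 alternatives) and from 2 to 3 in Cpt2L-/- Ppara KO against control without replicate 1 of that group (Acat1). The cause was not tested. Signs changed only for values near 0: Slc16a1 in Tsc1L-/- against control (-0.026 to 0.15 with a replicate left out); DKO against Cpt2L-/- for Bdh1 (0.083 and 0.084 with limma at pseudocounts of 1 and 0.1, -0.16 to 0.099 with a replicate left out) and Acat1 (0.051 with limma at both, -0.13 to 0.084); Bdh1 in DKO against Tsc1L-/- (-0.048 to 0.26); and Slc16a6 in Cpt2L-/- Ppara KO against Cpt2L-/- (-0.32 to 0.074).

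The replicate numbers of the labels did not pair the samples: correlations of same-numbered deviations were -0.261 to 0.170 in the first fit and -0.0978 to 0.234 in the second. With the replicate block, Bdh1 in DKO against Cpt2L-/- was 0.0012 and Acat1 in Cpt2L-/- Ppara KO against control passed (-1.01, adjusted p = 0.0406); no other call of the 4 genes changed.

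Over all genes, calls in Cpt2L-/- against control went from 4235 to 2798 with all 24 libraries, those in Tsc1L-/- against control went from 906 to 400 with all 24 libraries, 466 with only these groups and 583 without control replicate 3, those in the interaction of Tsc1 and Cpt2 loss from 324 to 752 with DESeq2, 65 with 24 libraries, 195 with limma at pseudocount 0.1 150 without DKO replicate 2 and 199 to 211 without control replicate 2 or 4 or Cpt2L-/- replicate 3 or 4, those in DKO against Cpt2L-/- from 2494 to 1065 with 24 libraries, 1546 without Cpt2L-/- replicate 3 and 1428 without DKO replicate 2, and those in Cpt2L-/- Ppara KO against Ppara KO from 3475 to 111 with only these groups, 2142 without Ppara KO replicate 3 and 1728 without Cpt2L-/- Ppara KO replicate 1. Calls in Cpt2L-/- Ppara KO against Cpt2L-/- went from 2499 to 1149 and 1239 without Cpt2L-/- replicate 3 or 4, and to 1418 without Cpt2L-/- Ppara KO replicate 2. Slc16a6, at 32 to 72 counts in control, has the least depth of the 4 genes.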
